A study of Rattus norvegicus with 10 samples.

Results

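Heart muscle genes were read in lung tissue, as 10 of the 22250 genes of a rat lung RNA-seq table. They were taken by gene name: Myh6, Myl4, Myl7, Mybpc3, Tnni3, Tnnt2, Actc1, Ryr2, Sln and Nppa. These are genes of atrial cardiomyocytes, and they were chosen because they stood apart in the library XBS 5, so their levels are given as a description. The series holds 10 libraries in 2 groups of 5, named XBS 1 to 5 and MOD 1 to 5, all labelled as rat lung tissue. Its design text speaks of neutrophilic asthma brought on in rats by lipopolysaccharide (a molecule of bacterial outer membranes) with ovalbumin, and of treatment with the Shuangpi Formula, SP. The labels neither spell out XBS and MOD nor say which of them received SP, and no source here gives dose, strain, age or sex. Whether each library is a different animal is not stated either, so replicate spread may be technical and the p-values speak for these libraries alone.

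The labels also list a human bronchial cell line, 16HBE, but the table holds rat genes. Lung markers were abundant in every library: Sftpc, surfactant protein C, was read at 5902 to 13070 CPM in XBS, against 10580 to 14370 CPM in MOD, and Ager, of flat alveolar cells, at 1093 to 1784 CPM in XBS, against 1690 to 2300 CPM in MOD. Scgb1a1, of airway club cells, was read at 1934 to 7761 CPM in XBS, against 6666 to 10840 CPM in MOD. Here CPM is a gene's count scaled to the size of its library, as counts per 1e+06 reads. The libraries held 11998979 to 15518929 counts each.

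In rats and mice, heart muscle does not end at the heart. Cardiomyocytes continuous with those of the left atrium sheathe the pulmonary veins and reach into the lung, so lung tissue can hold true cardiac muscle. These cells contract with sarcomeres, in which the motor myosin pulls on actin filaments. Troponin on the thin filament answers to calcium, which the ryanodine receptor lets out of the sarcoplasmic reticulum and a pump takes back up. Atrial cells use their own myosin light chains, a peptide brake on that pump (sarcolipin), and secrete the natriuretic hormone ANP.

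Cardiac muscle genes stood high in single libraries of both groups. XBS 5 and MOD 4 were the highest for 9 of the 10 genes, and MOD 1 came next for 7. In XBS 1 to 4, MOD 2 and MOD 3, Myh6, Myl7, Mybpc3 and Sln reached at most 0.577 CPM, with MOD 5 between these and MOD 1, while Tnnt2 kept a low base and Actc1 was plentiful. Summed over all 10 genes, levels were 80.3, 57.1, 40.2, 112.5 and 507 CPM in XBS 1 to 5, against 103.7, 82.7, 100.1, 386.5 and 89.1 CPM in MOD 1 to 5. In the lower libraries other than MOD 1, Actc1 made up most of that sum. For the 7 genes in which MOD 1 came next (Myh6, Myl7, Myl4, Mybpc3, Tnnt2, Tnni3 and Sln), a set taken after their values were seen, summed levels were 8.55, 8.44, 7.34, 11.6 and 246 CPM in XBS 1 to 5, against 60.5, 5.91, 7.32, 255 and 18.4 CPM in MOD 1 to 5. The 7 genes separated these libraries more widely than all 10 do, which follows from how they were taken, so nothing is read from it. In bulk tissue, more cardiomyocytes and more of this RNA per cardiomyocyte cannot be told apart.

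Thick filament genes had the widest range. Myh6 encodes the alpha heavy chain, the main motor of atrial and of adult rodent heart muscle. It had 0.164, 0, 0, 0.253 and 64.4 CPM in XBS 1 to 5, against 12.8, 0.0721, 0.0732, 94.5 and 4.67 CPM in MOD 1 to 5. MOD 4 was thus the highest library for Myh6 and XBS 5 the next. The other 4 XBS libraries were near or below 3 counts, which corresponded to 0.19 to 0.247 CPM. Myl7, the regulatory light chain of atrial myosin, had 0.411, 0.222, 0, 0 and 50.9 CPM in XBS 1 to 5, against 13.3, 0.433, 0.0732, 52.4 and 1.13 CPM in MOD 1 to 5. Myl4, the essential light chain of the same motor, had 0.164, 0.962, 1.08, 0.886 and 45.0 CPM in XBS 1 to 5, against 9.89, 0.361, 0.878, 28.7 and 2.76 CPM in MOD 1 to 5. For both light chains XBS 5 and MOD 4 stood above MOD 1, and MOD 1 above MOD 5. MOD 4 was first for Myl7 and XBS 5 for Myl4. Mybpc3, cardiac myosin-binding protein C, which braces the thick filament, had 0.329, 0.518, 0.404, 0.19 and 20.7 CPM in XBS 1 to 5, against 3.37, 0.577, 0.220, 19.5 and 1.06 CPM in MOD 1 to 5. For each of these 4 genes the groups overlapped: XBS 5 and MOD 4 were highest, and the other XBS libraries lay among the lower MOD libraries or just under them.

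Troponin genes showed the same high libraries over a measurable base. Tnnt2, cardiac troponin T, which anchors the troponin complex to tropomyosin, had 5.75, 4.22, 4.85, 5.44 and 39.95 CPM in XBS 1 to 5, against 12.2, 3.17, 3.37, 38.55 and 5.38 CPM in MOD 1 to 5. Tnni3, cardiac troponin I, the inhibitory subunit, had 1.64, 2.22, 0.741, 4.37 and 16.7 CPM in XBS 1 to 5, against 7.10, 1.23, 2.71, 16.0 and 2.83 CPM in MOD 1 to 5. Unlike Myh6 and Myl7, both had at least 10 counts in all 10 libraries. The Tnni3 gene overlaps Dnaaf3 on the same strand by 197 bases in the deposited table, and reads of that stretch cannot be told apart between them. Dnaaf3 is a factor for assembling the motors of cilia. Dnaaf3 had 157, 43, 47, 437 and 315 counts in XBS 1 to 5 and 128 to 318 counts in MOD, and its part in the low Tnni3 values was not tested.

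**Figure D1:**
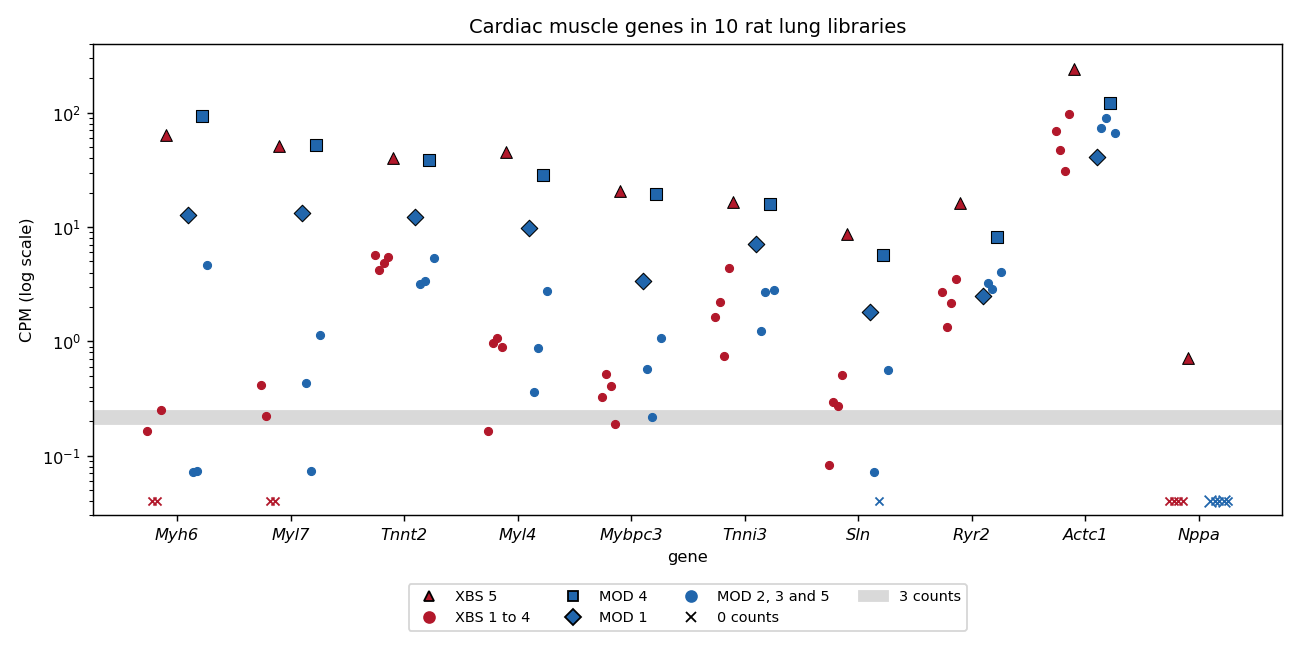
Level of each cardiac muscle gene in CPM (log axis) in each library, XBS libraries to the left and MOD libraries to the right of each gene; crosses at the bottom are libraries with 0 counts, and the grey band is the level of 3 counts (0.19 to 0.247 CPM). XBS 5 and MOD 4 stand above the other libraries for 9 of the 10 genes, and MOD 1 is the third highest for 7 of them.

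Of the calcium-handling genes, Sln had the same high libraries as the myosin genes and Ryr2 only in part. Sln encodes sarcolipin, the short membrane peptide that inhibits the calcium pump. It had 0.0822, 0.296, 0.269, 0.506 and 8.68 CPM in XBS 1 to 5, against 1.79, 0.0721, 0, 5.65 and 0.567 CPM in MOD 1 to 5. XBS 5 was highest, as for Myl4, followed by MOD 4 and MOD 1. Ryr2, the calcium release channel of heart muscle, had 2.71, 1.33, 2.16, 3.54 and 16.3 CPM in XBS 1 to 5, against 2.51, 3.24, 2.85, 8.24 and 4.04 CPM in MOD 1 to 5. XBS 5 and MOD 4 were again the highest for Ryr2, but MOD 1, the next highest for the myosin and troponin genes, was only the eighth of 10.

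Nppa, the gene of the hormone ANP, was read in XBS 5 and in no other library. It had 10 counts in XBS 5 (exact Poisson 95% interval 4.8 to 18.4, counting error only) and 0 counts in the 9 other libraries, MOD 4 included. That was 0.717 CPM in XBS 5, against 0 in MOD 4, where 3 counts would have been 0.199 CPM. The exact binomial 95% interval of the ratio of XBS 5 to MOD 4 began at 2.42 for Nppa, for counting error only. Nppa was among the genes chosen because XBS 5 stood apart, so nothing is read from that interval. Relative to Myl7, XBS 5 held 1.41 Nppa counts for every 100 Myl7 counts. In MOD 4, with as much Myl7, 3 counts of Nppa would have been 0.381 for every 100. Nppb, which encodes the related peptide BNP, had 1 count in XBS 5 and 0 elsewhere.

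Actc1, the sarcomeric actin of heart, was the most abundant of the 10 genes and was present in every library. It had 69.0, 47.3, 30.7, 97.3 and 243.8 CPM in XBS 1 to 5, against 40.7, 73.5, 89.9, 122.9 and 66.6 CPM in MOD 1 to 5. XBS 5 was highest and MOD 4 the next, but by a smaller margin than for the myosin genes, and XBS 4 was the next, with MOD 1 the ninth of 10. The coding sequences of Actc1 and of the skeletal (Acta1) and smooth muscle (Acta2, Actg2) actins are alike in part. The counting may have split some reads between these genes, which was not tested, so the Actc1 level is uncertain. Smooth muscle genes are given beside it. All 10 of the smooth muscle genes examined, among them Tagln, Acta2 and Myh11, were highest in XBS 5, as were 13.8% of all genes with at least 15 counts. Their summed level was 4168 CPM in XBS 5, against 1656 to 2474 CPM in the other XBS libraries and 1330 to 2543 CPM in MOD. MOD 4, at 2061 CPM, was at the MOD median, and MOD 1 had the lowest sum, at 1330 CPM. What part smooth muscle had in the Actc1 and Ryr2 levels was not tested.

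**Figure D2:**
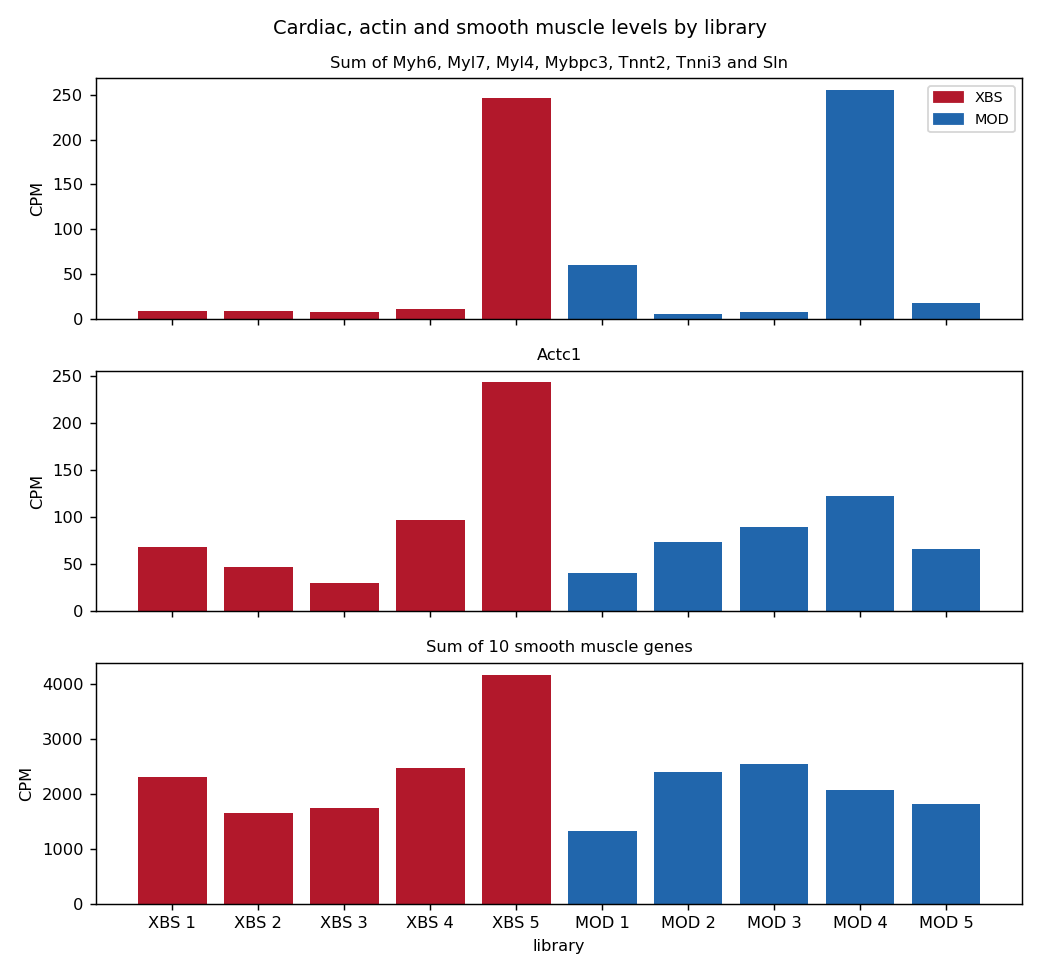
Summed level of 7 cardiac muscle genes (top), level of Actc1 (middle) and summed level of 10 smooth muscle genes (bottom) in each library, in CPM, XBS in red and MOD in blue. The 7 genes were taken after their values were seen. The cardiac sum reached 246 CPM in XBS 5 and 255 CPM in MOD 4, while the smooth muscle sum was high in XBS 5 (4168 CPM) and not in MOD 4 (2061 CPM).

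Levels between genes can be compared per gene length, in the authors' FPKM (fragments per length of gene and library size). The order and the shares below rest on the deposited gene lengths, which were taken as given. Myl7 was given 2064 bases and Myl4 795. In CPM, Myl7 exceeded Myl4 in XBS 5 (50.9 against 45.0 CPM) and in MOD 4 (52.4 against 28.7 CPM). In XBS 5, Actc1 stood at 168 FPKM, followed by Myl4 at 58.3, Tnnt2 at 33.98, Sln at 30.0, Myl7 at 25.3, Tnni3 at 21.4, Myh6 at 11.0, Mybpc3 at 5.10, Ryr2 at 1.13 and Nppa at 0.832 FPKM. In MOD 4 the order was nearly the same, with Actc1 at 81.4, Myl4 at 35.6, Tnnt2 at 31.5, Myl7 at 25.0, Tnni3 at 19.7, Sln at 18.7, Myh6 at 15.5, Mybpc3 at 4.63 and Ryr2 at 0.549 FPKM. Of the summed FPKM of the 9 genes other than Actc1, Myl4 made up 31.2% in XBS 5, 23.6% in MOD 4 and 26.5% in MOD 1, and Tnnt2 18.2%, 20.8% and 21.5%. Sln made up 16% in XBS 5, 12.4% in MOD 4 and 12.8% in MOD 1. Myh6 varied more between these libraries, at 5.88% in XBS 5, 10.2% in MOD 4 and 4.53% in MOD 1. In the lower libraries Tnnt2 had a larger share, at 34.4% to 61.2% in XBS 1 to 4, against 29.3% to 48.4% in MOD 2, 3 and 5. Myl7 had a smaller one, at 0 to 2.56% in XBS 1 to 4, against 0.469% to 3.86% in MOD 2, 3 and 5. Other shares varied among them and some lay near those of the high libraries, as in MOD 5 with 22.8% Myl4, 12.5% Sln and 5.1% Myh6. Actc1 alone made up 73.5% to 85.6% of the summed FPKM of all 10 genes in XBS 1 to 4 but 47.4% in XBS 5, against 35% in MOD 4, 36.8% in MOD 1 and 74.6% to 90.1% in the other MOD libraries.

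**Figure D3:**
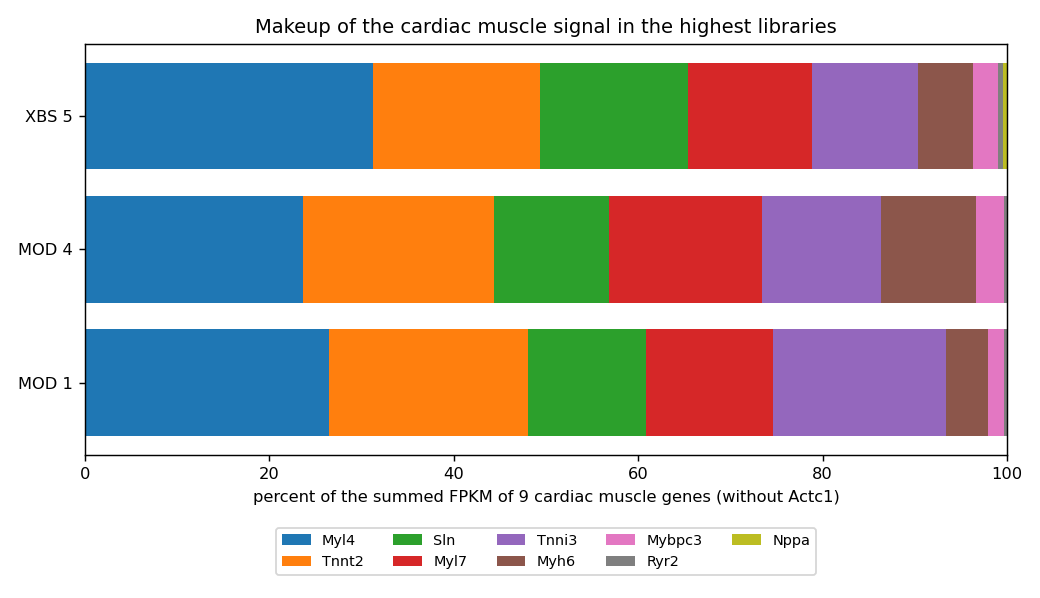
Share of each gene in the summed FPKM of the 9 cardiac muscle genes without Actc1, in percent, in the libraries with the highest sums (XBS 5 above MOD 4 and MOD 1). Myl4 is the largest share in each (31.2%, 23.6% and 26.5%), and Myh6 is largest in MOD 4 (10.2%). Shares rest on the deposited gene lengths, taken as given.

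Set against each other, the 2 high libraries agreed for some genes and not for others. The ratios that follow are XBS 5 over MOD 4 in CPM, with exact binomial 95% intervals that cover counting error only; they compare 1 library with 1 library and not the groups. The ratio was 0.971 (0.876 to 1.08) for Myl7, 1.04 (0.921 to 1.17) for Tnnt2, 1.04 (0.867 to 1.25) for Tnni3 and 1.06 (0.895 to 1.25) for Mybpc3. For these 4 genes the interval included equal levels. Myh6 was lower in XBS 5, with a ratio of 0.681 (0.626 to 0.741). Myl4 (1.57, 1.39 to 1.78) and Sln (1.54, 1.15 to 2.05) were higher in XBS 5. Ryr2 (1.98, 1.58 to 2.48) and Actc1 (1.98, 1.87 to 2.10) had the highest ratios of the 9 genes with counts in both libraries, which leaves out Nppa. The smooth muscle genes had a median ratio of 1.96 over 10 genes (range 1.31 to 2.76). The median over all genes with at least 15 counts in all was 1.015.

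**Figure D4:**
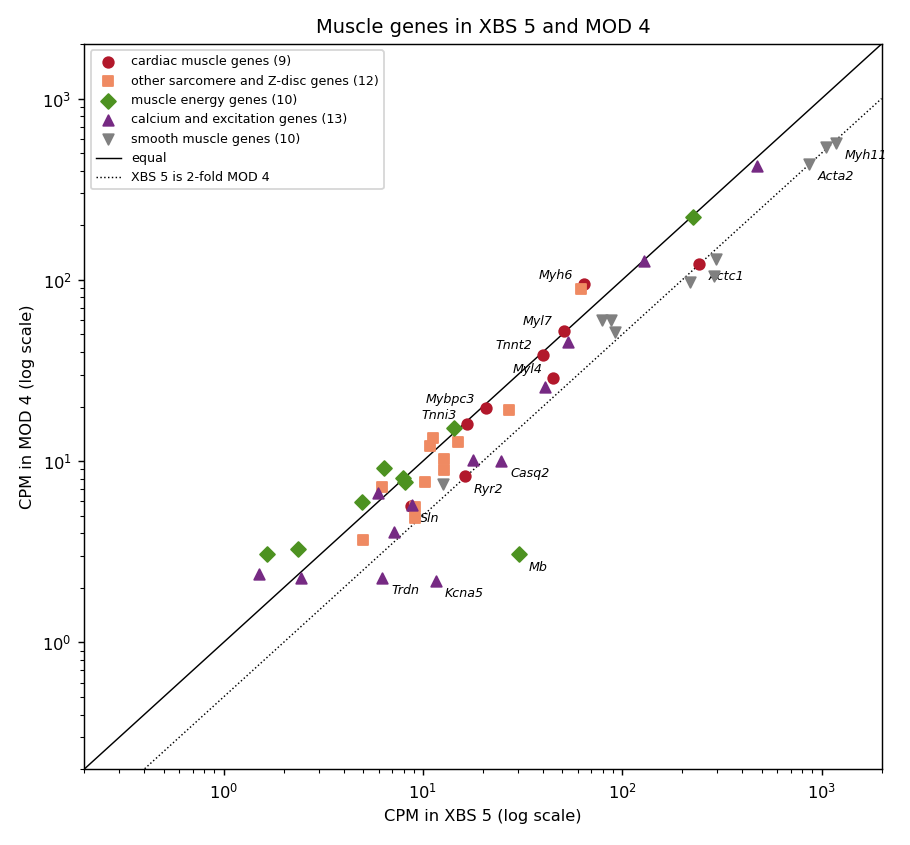
Level of each muscle gene in XBS 5 (horizontal) and MOD 4 (vertical), in CPM on log axes; each point is a gene with at least 15 counts in all, the solid line marks equal levels and the dotted line levels that are 2-fold higher in XBS 5. Myl7, Tnnt2, Tnni3 and Mybpc3 lie near the solid line, and Actc1, Ryr2 and the smooth muscle genes near the dotted one.

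The promoters of 5 genes are shown, since the genes differed in which libraries held them: Myh6, Mybpc3 and Tnni3 were high in XBS 5, MOD 4 and MOD 1, Nppa was seen in XBS 5 alone, and Actc1 was seen throughout. RefSeq's table (build GRCr8) held an entry for 9 of the 10 genes. Each line gives the 250 bases before the gene's start, on the gene's strand. Capitals mark matches on either strand to 4 elements found in many muscle promoters: the MEF2 element and the CArG box, given by name, and the letters CATTCC and GATAA. MEF2 factors read the first, serum response factor the CArG box, TEAD factors CATTCC, and GATA factors GATAA.
Myh6, chr15:32411698-32411947, minus strand: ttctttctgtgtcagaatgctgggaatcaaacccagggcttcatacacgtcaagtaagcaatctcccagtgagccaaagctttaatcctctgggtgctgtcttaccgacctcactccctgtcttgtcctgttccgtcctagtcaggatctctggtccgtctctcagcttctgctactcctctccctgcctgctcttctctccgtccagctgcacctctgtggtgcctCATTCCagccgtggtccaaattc
Mybpc3, chr3:97550811-97551060, plus strand: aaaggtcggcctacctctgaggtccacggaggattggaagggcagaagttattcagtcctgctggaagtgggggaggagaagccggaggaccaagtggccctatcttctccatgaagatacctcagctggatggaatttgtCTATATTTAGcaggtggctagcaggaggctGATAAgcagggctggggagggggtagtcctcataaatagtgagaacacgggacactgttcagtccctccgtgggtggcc
Tnni3, chr1:78342321-78342570, plus strand: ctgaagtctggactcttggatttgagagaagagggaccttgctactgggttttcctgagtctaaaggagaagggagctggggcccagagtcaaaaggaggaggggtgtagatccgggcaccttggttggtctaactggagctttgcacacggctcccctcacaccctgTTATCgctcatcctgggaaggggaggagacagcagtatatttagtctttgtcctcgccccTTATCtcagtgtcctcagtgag
Nppa, chr5:163711934-163712183, plus strand: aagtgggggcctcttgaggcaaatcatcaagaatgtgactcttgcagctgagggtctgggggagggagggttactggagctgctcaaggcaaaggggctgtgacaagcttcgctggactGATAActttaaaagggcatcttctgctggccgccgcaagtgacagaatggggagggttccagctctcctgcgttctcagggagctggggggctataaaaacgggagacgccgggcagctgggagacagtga
Actc1, chr3:121271828-121272077, minus strand: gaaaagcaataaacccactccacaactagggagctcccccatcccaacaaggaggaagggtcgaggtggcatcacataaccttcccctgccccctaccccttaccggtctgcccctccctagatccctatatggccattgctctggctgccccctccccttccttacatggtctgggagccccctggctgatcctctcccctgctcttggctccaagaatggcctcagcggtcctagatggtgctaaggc
Mybpc3 held a MEF2 element and GATAA, Tnni3 held GATAA at 2 places, Nppa held it once, and Myh6 held CATTCC. The Actc1 window held none of the 4. Among the 9 genes with an entry, GATAA was found in 4, CATTCC in 2, the MEF2 element in 1 and the CArG box in 0. Of all 33469 windows of this length, 23.5% held GATAA, 12.1% CATTCC, 2.96% the MEF2 element and 1.5% the CArG box. These matches are letters in a window and no measure of binding, and no element was shared by all the genes that were high together.

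The comparison of the groups, XBS against MOD, was run across all genes with edgeR's quasi-likelihood test. A filter on low counts kept 14320 genes, among them 5 of the 10 cardiac muscle genes (Actc1, Myl4, Ryr2, Tnni3 and Tnnt2). Myh6, Myl7 and Mybpc3 reached 10 counts in 4 libraries, Sln in 3 and Nppa in 1, so these 5 were not tested. Of the 5 tested, 0 rose, 0 fell and 5 did not pass an adjusted p of 0.05. Of all tested genes 0.0768% passed, 0.0279% higher and 0.0489% lower in XBS. For 0 of the 5 did the XBS and MOD ranges stand apart without overlap, as they did for 2.74% of all tested genes. At an unadjusted p under 0.05, 0 of the 5 passed by edgeR, against 13.2% of all genes, and DESeq2 called 0 of 5, against 2.34%. Actc1 averaged 97.6 ± 85.5 CPM in XBS and 78.7 ± 30.4 CPM in MOD (SD, n = 5 each), a log2 fold change of 0.31 ± 0.51 (SE, edgeR adjusted p = 0.818). Myl4 averaged 9.63 ± 19.8 CPM in XBS and 8.52 ± 11.9 CPM in MOD (SD, n = 5 each), with a log2 fold change of 0.17 ± 1.41 (SE, edgeR adjusted p = 0.965). The log2 fold changes of Ryr2, Tnni3 and Tnnt2 were 0.31 ± 0.64, -0.22 ± 0.86 and -0.06 ± 0.86 (SE), with edgeR adjusted p = 0.856, 0.93 and 0.98. For each of these 5 genes the standard error exceeded the size of the difference.

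For the untested genes the group means are given without a test. Myh6 averaged 13.0 ± 28.8 CPM in XBS and 22.4 ± 40.6 CPM in MOD, and Myl7 10.3 ± 22.7 CPM in XBS and 13.5 ± 22.4 CPM in MOD (SD, n = 5 each). Mybpc3 averaged 4.42 ± 9.08 CPM in XBS and 4.95 ± 8.25 CPM in MOD, and Sln 1.97 ± 3.75 CPM in XBS and 1.62 ± 2.37 CPM in MOD (SD, n = 5 each). In summed FPKM, the 10 genes averaged 112 ± 138 in XBS and 97.6 ± 75.9 in MOD. Without Actc1 the sums were 44.9 ± 79.5 FPKM in XBS and 45.2 ± 61.6 FPKM in MOD (SD, n = 5 each).

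Which library was left out set the direction of these values. Without XBS 5, the library on which the genes were chosen, the same 5 genes were tested and all had negative log2 fold changes, from -3.43 ± 1.21 for Myl4 to -0.37 ± 0.37 for Actc1 (SE). Of the 5, 0 passed the adjusted threshold by edgeR, against 0.0834% of all genes, and 0 by DESeq2, against 2.59%. The smallest edgeR adjusted p was 0.275, for Myl4, and 1 of the 5 passed an unadjusted p under 0.05, against 14.3% of all genes. By DESeq2 the smallest adjusted p was 0.074, also for Myl4. Without MOD 4 all 5 had positive log2 fold changes, up to 1.47 for Myl4, and 0 passed by edgeR, against 0.0277% of all genes. Without both libraries, a choice made after seeing the data, all 5 were negative again, from -2.14 for Myl4 (edgeR adjusted p = 0.532) to -0.15 for Actc1. By edgeR 0 of the 5 and 0 genes in all (0%) then passed, and at an unadjusted p under 0.05 1 of the 5 did, against 9.37% of all genes. MOD 1 and MOD 5 then held the highest levels of Myh6, Myl7, Myl4, Mybpc3 and Sln.

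Of the close relatives of the 10 genes that mark other muscle, some were scarce and others were not. Slow muscle uses the heavy chain Myh7, and ventricular and slow muscle the light chains Myl2 and Myl3. Myh6 is the main motor of adult rodent heart muscle, so the Myh7 level does not tell atrial from ventricular muscle. Myh7 had 0 to 0.19 CPM in XBS 1 to 4 and 1.43 CPM in XBS 5, against 1.26 CPM in MOD 4 and 0 to 0.287 CPM in the other MOD libraries. It shared the pattern of Myh6 at a far lower level, at a mean of 0.0565 FPKM over the 10 libraries against 2.95 FPKM for Myh6. Myl2 had 3 counts in MOD 4 and 0 elsewhere, and Myl3 at most 6 counts in any library. Of the 12 relatives with at least 15 counts, 2 (Myh7 and Pln) were highest in XBS 5 and MOD 4. Pln encodes phospholamban, the sarcolipin relative that brakes the pump of ventricle and of smooth muscle. It had 5.85 to 15.9 CPM in XBS 1 to 4 and 51.0 CPM in XBS 5, against 6.09 to 19.5 CPM in MOD, and XBS 5 exceeded MOD 4 by a ratio of 2.61 (2.27 to 3.00). The others included skeletal troponins and Acta1, Ryr1, Ryr3, Mybpc1 and Mybpc2. Over the 10 libraries Ryr3 averaged 1.316 FPKM, against 0.318 FPKM for Ryr2, and Mybpc2 averaged 2.275 FPKM, against 1.133 FPKM for Mybpc3. The skeletal troponin Tnnt3 averaged 4.42 FPKM, against 10.2 FPKM for Tnnt2. Of the 7 relatives tested, 0 rose, 0 fell and 7 did not pass, and their median log2 fold change was 0.50, against 0.01 over all genes. The largest difference was that of Mybpc2, which encodes fast skeletal myosin-binding protein C, at 0.89 ± 0.25 (SE, edgeR adjusted p = 0.19; DESeq2 adjusted p = 0.0338).

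Other genes of the cardiac sarcomere followed the same libraries. Of 12 sarcomere and Z-disc genes with at least 15 counts, 10 were highest in XBS 5 and MOD 4, as were 2.49% of all genes of that depth, and in 5 both libraries were at least 2-fold above every other, as in 0.295% of all genes. Among the cardiac muscle genes themselves these counts were 9 and 8 of 9, but they were chosen on these levels and nothing is read from that. The pair of libraries was chosen after the values were seen. Csrp3, the muscle LIM protein of the Z-disc, had 0 counts in XBS 1 to 4 and 11.3 CPM in XBS 5, against 2.80, 0, 0, 13.4 and 0.425 CPM in MOD 1 to 5. Tnnc1, troponin C, the calcium sensor that joins Tnnt2 and Tnni3, had 1.08 to 2.44 CPM in XBS 1 to 4 and 15.0 CPM in XBS 5, against 4.87, 0.865, 1.46, 12.7 and 1.20 CPM in MOD 1 to 5. Actn2, the alpha-actinin of the sarcomeric Z-disc, had at most 0.148 CPM in XBS 1 to 4 and 10.9 CPM in XBS 5, against 12.1 CPM in MOD 4 and 1.65 CPM in MOD 1. Nebl, a nebulin relative, did not share the pattern (46.6 to 76.0 CPM in XBS, against 61.2 to 91.1 CPM in MOD). Of the 8 tested, 0 rose, 0 fell and 8 did not pass, with a median log2 fold change of 0.02, and of -0.42 without XBS 5.

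Energy genes of muscle mostly had the same high libraries. Of 10, 7 were highest in XBS 5 and MOD 4, and 5 at least 2-fold above every other library. Cox6a2, the heart and muscle form of a cytochrome oxidase subunit, had 0.296 to 1.14 CPM in XBS 1 to 4 and 6.38 CPM in XBS 5, against 9.17 CPM in MOD 4 and 0.293 to 1.86 CPM in the other MOD libraries. Mb, the oxygen store myoglobin, had 0 to 0.247 CPM in XBS 1 to 4 and 30.5 CPM in XBS 5, against 3.06 CPM in MOD 4 and 0 to 1.15 CPM in the other MOD libraries. Its ratio of XBS 5 to MOD 4 was 9.97 (7.34 to 13.8, counting error only), whereas the median ratio of the 10 energy genes was 0.884. Mb, Actn2 and Cox6a2 were named after their values were seen. Slc25a4, the mitochondrial ADP/ATP carrier of many tissues, was highest in the same libraries by a small margin, at 157 to 176 CPM in XBS 1 to 4 and 225 CPM in XBS 5, against 222 CPM in MOD 4 and 157 to 188 CPM in the other MOD libraries. Of the 6 tested, 0 rose, 0 fell and 6 did not pass, with a median log2 fold change of 0.04.

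Genes of calcium handling and excitation were mixed. Of 13, 6 were highest in XBS 5 and MOD 4, and 3 (Hrc, Srl and Trdn, proteins of the calcium store) at least 2-fold above every other library. Atp2a2, the calcium pump that Sln and Pln inhibit, is used far beyond the heart and was among the 6, at 252 to 383 CPM in XBS 1 to 4 and 474 CPM in XBS 5, against 427 CPM in MOD 4 and 293 to 332 CPM in the other MOD libraries. Gja5, a gap junction protein of atrium and arterial endothelium, had 124 to 148 CPM in XBS, against 115 to 152 CPM in MOD, with neither XBS 5 (129 CPM) nor MOD 4 (128 CPM) standing out. Jph2, which ties the calcium store to the surface membrane, was highest in XBS 5 (41.0 CPM) but not raised in MOD 4 (25.7 CPM). Of the 12 tested, 0 rose, 0 fell and 12 did not pass, with a median log2 fold change of 0.10. Cardiac transcription factors gave little signal. Of 8 with at least 15 counts, 2 (Tbx20 and Shox2) were highest in XBS 5 and MOD 4. Tbx20 had 6 counts in XBS 5, against 32 in MOD 4 (ratio 0.202, 0.0692 to 0.491), with 6 in MOD 1 as well, and Shox2, a factor of the sinus venosus and the pacemaker, 29 counts in XBS 5, against 12 in MOD 4 (ratio 2.61, 1.29 to 5.61). Nkx2-5 had 3 counts in XBS 5, 5 in MOD 4 and at most 1 elsewhere. Of the 5 factors tested, among them Ankrd1, Tbx5 and Mef2c, 0 rose, 0 fell and 5 did not pass, with a median log2 fold change of 0.12.

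By pattern, the genes most like the tested cardiac muscle genes were found from log2 CPM over the 10 libraries, as the Pearson r with their mean. Only other genes that passed the count filter and had a proper gene name were searched. Genes below the filter, such as Csrp3 and Actn2, could not be listed. The 8 closest were Hrc (r = 0.947), Cmya5 (0.941), Art3 (0.94), Hspb7 (0.938), Cox6a2 (0.936), Tnnc1 (0.922), Fabp3 (0.91) and Myom1 (0.903). These r describe 10 points of which XBS 5 and MOD 4 are the extremes, and are given with no p. Without both libraries they fell to between 0.335 (Fabp3) and 0.774 (Cox6a2). Across the whole table, 48 genes had XBS 5 and MOD 4 both at least 2-fold above every other library: 8 of the cardiac muscle genes, 14 genes of the lists above and 26 others. MOD 1 was the next highest for 30 of the 48. Among the others, named after their values were seen, were Cmya5, Nrap, Xirp2, Smyd1 and Unc45b, which belong to striated muscle. Hamp, the iron hormone hepcidin, best known from liver, was also among them, at 7.67 CPM in XBS 5, against 5.45 CPM in MOD 4 and at most 1.29 CPM elsewhere, as was Hjv, a co-receptor known to control it (2.73 CPM in XBS 5, against 3.06 CPM in MOD 4).

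Markers of other tissues near the lung root were set against the same 2 libraries. Genes with at least 15 counts numbered 7 for fast skeletal muscle, 10 for thymus and lymph node, 2 for cartilage and 5 for mesothelium. Of these, 0 were highest in XBS 5 and MOD 4, and of 6 fat cell genes 1 (Cidea, at 6.10 CPM in XBS 5 and 6.38 CPM in MOD 4) was. Of all genes of that depth 2.49% were, a share at which lists this short often hold 0, so nothing is read from it. The fat gene Ucp1 and the thymus gene Psmb11 had 0 counts in every library, as had Myod1 of skeletal muscle and Matn1 of cartilage. Summed fast skeletal genes ranged over 11.3 to 18.3 CPM in XBS, against 7.38 to 16.7 CPM in MOD, fat genes over 9.70 to 18.9 CPM in XBS, against 11.0 to 13.1 CPM in MOD, and cartilage genes over 1.65 to 4.09 CPM in XBS, against 1.28 to 2.45 CPM in MOD. XBS 5 differed from MOD 4 in some of these markers. Thymus and lymph node genes summed to 144 CPM in XBS 5, against 78.5 to 93.3 CPM in the other XBS libraries and 59.2 to 103 CPM in MOD, where MOD 4 was lowest. Much of that sum was the follicle gene Cr2, at 50.9 CPM in XBS 5, against 3.52 CPM in MOD 4, and 2 of the 10 genes of the list with at least 15 counts (Cr2 and Fcer2) were highest in XBS 5. Tcf7 (44.0 CPM) and Ccr7 (26.2 CPM) in XBS 5 lay within the MOD range. The mesothelial gene Upk3b, from the lining of the lung surface, was at 0.287 CPM in XBS 5, against 5.76 to 30.3 CPM in the other XBS libraries and 3.06 to 13.9 CPM in MOD. Lrrn4 (0.645 CPM) and Wt1 (0 CPM) were also lowest in XBS 5, so 3 of the 5 genes of that list were. Bnc1 had 0 CPM in both XBS 5 and MOD 4, while Msln, of the same list, was highest in XBS 5 (81.5 CPM). Of 7 lung markers, 6 were lowest in XBS 5. The share of all genes lowest in XBS 5 was not counted, so nothing is read from how many mesothelial and lung genes were. What part the makeup of the tissue pieces had in the cardiac muscle values was not tested.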

How the data were processed

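Lung RNA was purified to mRNA, fragmented and made into adapter-ligated libraries, per the labels' protocols. The authors deposited 1 table of read counts per gene and FPKM per gene, per the file headers. The deposited FPKM matched counts divided by each gene's length and its library's sum, to within a relative 8.82e-08. Aligner, counter, strand setting and rat build are not stated.

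The 10 genes and all gene lists were chosen with earlier results of these data known, and the pattern of XBS 5 with MOD 4 after seeing the values. Counts were tested as XBS over MOD with edgeR 4.0.16 (R 4.3.3; quasi-likelihood, TMM scaling, filter of 10 counts and 15 in all, Benjamini-Hochberg adjustment), which kept 14320 genes and 99.921% of counts. DESeq2 1.42.0 and limma 3.58.1 were alternatives. The code was tested on simulated data. Named genes were to be the 10, their relatives, the 3 of highest mean FPKM in each list, the 8 most alike and 3 lung markers. Not all of these relatives and list genes are named above, and others were named after their values were seen. Within a group, every pair of libraries differed beyond sampling noise. Intervals cover counting error only.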

Additional observations from a re-analysis of the deposited data

Results flagged for a closer look

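Within each group of 5 libraries, a value was marked when its gap to the nearest other exceeded 0.71 of the group's range, Dixon's 95% critical value, which chance passes in about 5% of groups. Of 21 groups examined, 16 were marked, 10 in XBS and 6 in MOD. The genes were chosen because XBS 5 stood apart, so the XBS marks restate that choice, and the genes are not independent of one another.

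In XBS the library far from the others was XBS 5 each time. It had 64.4 CPM of Myh6, 50.85 CPM of Myl7, 45.04 CPM of Myl4 and 20.65 CPM of Mybpc3. It had 39.95 CPM of Tnnt2, 16.71 CPM of Tnni3, 16.28 CPM of Ryr2, 8.678 CPM of Sln and 0.7172 CPM of Nppa. The 9 genes without Actc1 summed to 263.3 CPM there.

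In MOD it was MOD 4 each time. It had 94.52 CPM of Myh6, 52.38 CPM of Myl7, 38.55 CPM of Tnnt2, 19.54 CPM of Mybpc3 and 8.242 CPM of Ryr2, and the 9 genes summed to 263.6 CPM. Myl4, Tnni3 and Sln in MOD 4 were not marked, since MOD 1 lay between it and the rest.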

How the results depend on the processing

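Of the tested cardiac muscle genes, 0 were called under every alternative run, with and without XBS 5. Genes called over the whole table numbered 11, against 335 by DESeq2, 66 by limma voom with sample weights, 4 to 15 leaving out 1 library, and 0 without MOD 4 and XBS 5. Leaving out 1 library, the log2 fold change ranged over -0.37 to 0.53 for Actc1, -3.43 to 1.47 for Myl4, -0.78 to 0.72 for Ryr2, -1.41 to 0.57 for Tnni3 and -1.31 to 1.00 for Tnnt2, lowest without XBS 5 and highest without MOD 4 (without XBS 3 for Actc1). The log2 ratio of mean CPM ranged over -7.75 to 1.56 for Myh6, -6.41 to 1.46 for Myl7, -2.49 to 1.69 for Sln and -3.78 to 1.76 for Mybpc3, between the same libraries. The log2 ratio of the summed FPKM ranged over -0.94 to 0.81. By voom the sign turned for Actc1 (-0.094), Tnnt2 (0.071), Myl4 (-0.79) and Ryr2 (-0.12), and without MOD 4 and XBS 5 for Actc1 (-0.15), Myl4 (-2.14) and Ryr2 (-0.37); the cause was not tested.

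In the fit with a replicate block, 1 gene passed, and Myl4 (-1.003) and Ryr2 (-0.15) turned sign. The numbers share no stated source, same-numbered deviations correlated at -0.125 to 0.329, and 1 of the 5 numbers correlated best with itself. Genes near 3 counts (0.19 to 0.247 CPM) cannot be ordered at this depth.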
